A study of Homo sapiens with 6 samples.

Results

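The glycolysis and hypoxia target genes are 36 genes taken by symbol from the 16623 genes of the expression tables. They comprise 23 genes of glucose uptake, glycolysis and lactate handling and 13 targets of the hypoxia-inducible factors. The cells were MDA-MB-231, an established triple-negative breast cancer line of mesenchymal character. They were kept for 24 h or 48 h in the solvent DMSO or in PCI-24781, an inhibitor of histone deacetylases (HDACs), at 100 nM or at 200 nM. There was 1 library for each of the 6 combinations, so no difference has a replicate check, no p-value was calculated, and every value stands for these libraries. Each value is an FPKM, the number of fragments scaled to transcript length and to the mapped fragments of the library, calculated by the authors. The paper describes attached growth in medium with fetal bovine serum in a humidified incubator, and the labels name no treatment with low oxygen.

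Glycolysis converts glucose to pyruvate in the cytosol, and lactate dehydrogenase converts pyruvate to lactate, which leaves the cell through monocarboxylate transporters. When oxygen is low, prolyl hydroxylases of the EGLN family act less on the HIF alpha subunits HIF1A and EPAS1, which then accumulate, pair with ARNT and bind short DNA sites with the core ACGTG or GCGTG. Their targets include many glycolytic enzymes, the glucose transporter SLC2A1, the growth factor VEGFA and enzymes that control acidity. Breast cancer cells of the triple-negative class are known for high glucose use, and HIF subunits are controlled largely at the protein level, which was not measured here.

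The HIF core letters were located in the promoters of the members, from 250 bases before to 50 bases after each transcription start (RefSeq, build GRCh38.p14). The table held promoters for 31 of the 36 members, 20 of them with a single listed start, and none for BNIP3L, NDRG1, SLC16A1, SLC2A3 and VEGFA. ACGTG or GCGTG, read on both strands, occurred in 39 of the 58 listed promoters of members (67.2%), in 60.7% of the 14338 promoters of genes expressed in any library (FPKM of at least 1) and in 48.4% of all 35116 promoters. The palindrome CACGTG, which counts as 2 overlapping matches of the core, occurred in 8 of the 58 promoters (13.8%), in 9.24% of those of the expressed genes and in 7.26% of all. Because some genes have several listed starts, the promoters are not independent of one another. Shown here are the 4 single-start members with 3 or more matches, and the carbonic anhydrase genes CA12 and CA9 because CA12 passed the 2-fold limit of change at 200 nM 24 h while CA9 was lower there. Capitals mark the core on either strand, and each sequence runs 5′ to 3′ along its gene.
BNIP3 (chr10:131981874-131982173, minus strand): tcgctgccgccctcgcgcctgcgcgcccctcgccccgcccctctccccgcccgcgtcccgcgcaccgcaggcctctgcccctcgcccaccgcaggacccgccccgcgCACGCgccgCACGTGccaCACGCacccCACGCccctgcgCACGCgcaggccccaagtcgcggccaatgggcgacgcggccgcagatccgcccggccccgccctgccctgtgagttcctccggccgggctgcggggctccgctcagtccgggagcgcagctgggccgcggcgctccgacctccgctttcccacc
ALDOC (chr17:28576846-28577145, minus strand): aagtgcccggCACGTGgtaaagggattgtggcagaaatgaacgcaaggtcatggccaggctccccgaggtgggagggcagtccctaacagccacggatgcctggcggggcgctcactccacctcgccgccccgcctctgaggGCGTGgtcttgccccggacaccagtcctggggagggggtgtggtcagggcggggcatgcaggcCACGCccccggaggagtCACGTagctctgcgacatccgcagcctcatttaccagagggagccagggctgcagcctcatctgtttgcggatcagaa
PGK1 (chrX:78103998-78104297, plus strand): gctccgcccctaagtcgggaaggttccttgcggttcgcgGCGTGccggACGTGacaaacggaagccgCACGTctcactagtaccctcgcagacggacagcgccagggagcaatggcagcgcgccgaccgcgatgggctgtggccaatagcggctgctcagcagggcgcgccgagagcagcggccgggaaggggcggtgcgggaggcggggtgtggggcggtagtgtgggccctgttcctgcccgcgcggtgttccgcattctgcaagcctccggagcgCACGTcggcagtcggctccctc
ANKRD37 (chr4:185396591-185396890, plus strand): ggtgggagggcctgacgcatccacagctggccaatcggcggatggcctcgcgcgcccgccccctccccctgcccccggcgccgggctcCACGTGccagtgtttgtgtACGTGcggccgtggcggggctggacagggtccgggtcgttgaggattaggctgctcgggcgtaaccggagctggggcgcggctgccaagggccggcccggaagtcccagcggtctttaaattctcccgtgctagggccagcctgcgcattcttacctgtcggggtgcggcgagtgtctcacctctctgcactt
CA12 (chr15:63381797-63382096, minus strand): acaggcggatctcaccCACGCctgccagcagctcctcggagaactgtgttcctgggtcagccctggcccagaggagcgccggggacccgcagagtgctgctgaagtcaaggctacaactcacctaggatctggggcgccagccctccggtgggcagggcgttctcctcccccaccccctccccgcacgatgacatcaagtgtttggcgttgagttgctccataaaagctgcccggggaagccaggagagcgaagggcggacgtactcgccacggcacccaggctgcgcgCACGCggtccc
CA9 (chr9:35673678-35673977, plus strand): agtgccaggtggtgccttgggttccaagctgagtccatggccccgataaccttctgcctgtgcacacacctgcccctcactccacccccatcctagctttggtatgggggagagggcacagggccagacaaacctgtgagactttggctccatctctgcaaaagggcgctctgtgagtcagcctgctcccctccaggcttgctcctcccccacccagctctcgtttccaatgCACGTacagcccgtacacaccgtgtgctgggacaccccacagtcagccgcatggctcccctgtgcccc
BNIP3 held 6 matches in this window, ALDOC 5, PGK1 4, ANKRD37 3, CA12 2 and CA9 1. A match is a description of letters and not a measured binding site.

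The libraries had similar depth. From the steps of 1 fragment between low values of short genes, the depth was about 16600000 to 19200000 fragments, at which 3 fragments on a transcript of 2 kb (the limit used for a level of 0) give an FPKM of 0.078 to 0.090. The cell line label was checked against markers. VIM, CD44, EGFR, FN1 and CAV1 were between 35.1 and 2053 FPKM, ESR1, PGR and CDH1 were at most 0.39 FPKM, and EPCAM was between 2.26 and 4.7 FPKM. All 4 luminal markers were detected, with KRT8 and KRT18 at 61.5 to 111 FPKM and GATA3 and FOXA1 at 0.7 to 1.75 FPKM. The 5 leukocyte and endothelial markers summed to 1.48 to 3.43 FPKM at 24 h and 3.29 to 4.82 FPKM at 48 h. PTPRC was at 0.76 to 1.01 FPKM, CD14 at 0.28 to 1.47 FPKM and PECAM1 at 0.38 to 2.33 FPKM. CD3E was at 0 in 4 libraries and CDH5 at 0.01 to 0.03 FPKM. The part of these 5 markers in the results was not tested. CDKN1A, a cell cycle inhibitor gene commonly raised by HDAC inhibitors, was at 13.2, 30.6 and 48.8 FPKM in DMSO, 100 nM and 200 nM at 24 h but at 44.2, 25.8 and 52.9 FPKM at 48 h. The libraries labelled DMSO 48 h and 100 nM 48 h thus stood in the opposite order to those at 24 h. Labels were used as given, and each value at 48 h that compares 100 nM with DMSO rests on these 2 libraries.

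With PCI-24781 the members as a group differed little from DMSO, and most differences were toward higher levels. A member was called when log2(FPKM + 1) differed at least 2-fold and the FPKM was at least 1 in either library. SLC16A1, listed at 0.04 to 0.08 FPKM, did not reach this level, which left 35 members in each comparison. At 200 nM and 24 h, 2 of the 35 were called higher (NDRG1 and CA12), against 4.49% of all 11660 genes tested, and 0 were called lower, against 1.48%. In the other 3 comparisons 0 members were called in either direction, where the genes called higher and lower were 1.35% and 0.131% for 100 nM 24 h, 0.0608% and 0.408% for 100 nM 48 h, and 0.206% and 0.06% for 200 nM 48 h. The share of members called was thus close to the background in every comparison. At a lower limit of 1.5-fold, 7 of the 35 were higher at 200 nM 24 h (12.5% of all genes) and 1 lower (7.62%), at 100 nM 24 h 2 were higher (5.58%) and 1 lower (1.25%), at 100 nM 48 h 2 were higher (0.504%) and 0 lower (1.76%), and at 200 nM 48 h 1 was higher (1.53%) and 0 lower (0.463%).

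**Figure D1:**
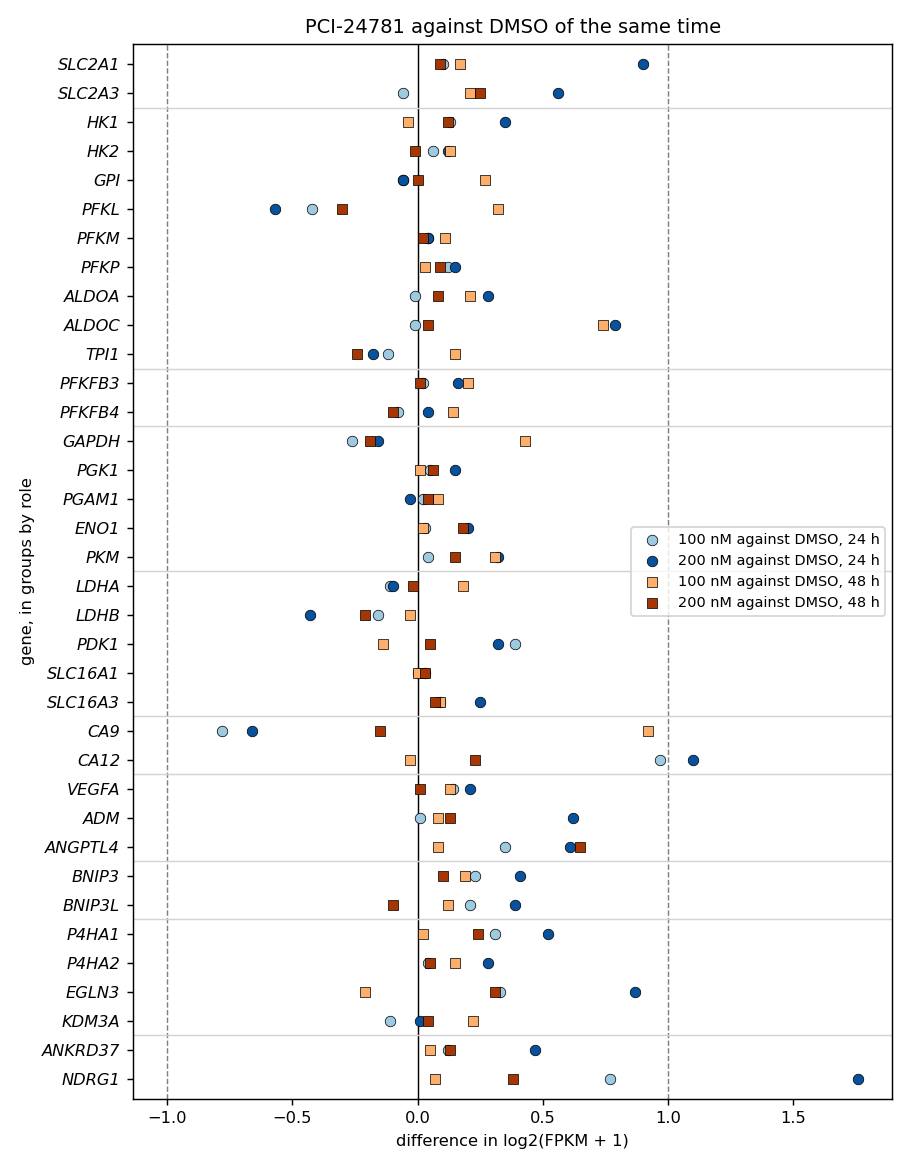
Difference in log2(FPKM + 1) of each treated library from DMSO at its own time, for the 36 members in groups by role. Circles are 24 h and squares 48 h, light colours 100 nM and dark colours 200 nM, and dashed lines mark 2-fold. Only NDRG1 and CA12 at 200 nM 24 h lie beyond 2-fold.

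The small differences leaned one way. The median over the 35 members at 24 h was 0.04 for 100 nM and 0.25 for 200 nM on the log2(FPKM + 1) scale, and at 48 h it was 0.13 and 0.05, while the median of all genes lay between -0.01 and 0.01. Members above DMSO by any amount numbered 23, 27, 30 and 26 in the same order, against 51.6%, 51.2%, 47.2% and 51% of all genes. The lean at 200 nM 24 h was larger for the 13 hypoxia targets, with a median of 0.47, than for the 22 tested glycolysis members, with a median of 0.15. The 2 comparisons of each time share their DMSO library, so they are not separate observations of it.

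**Figure D2:**
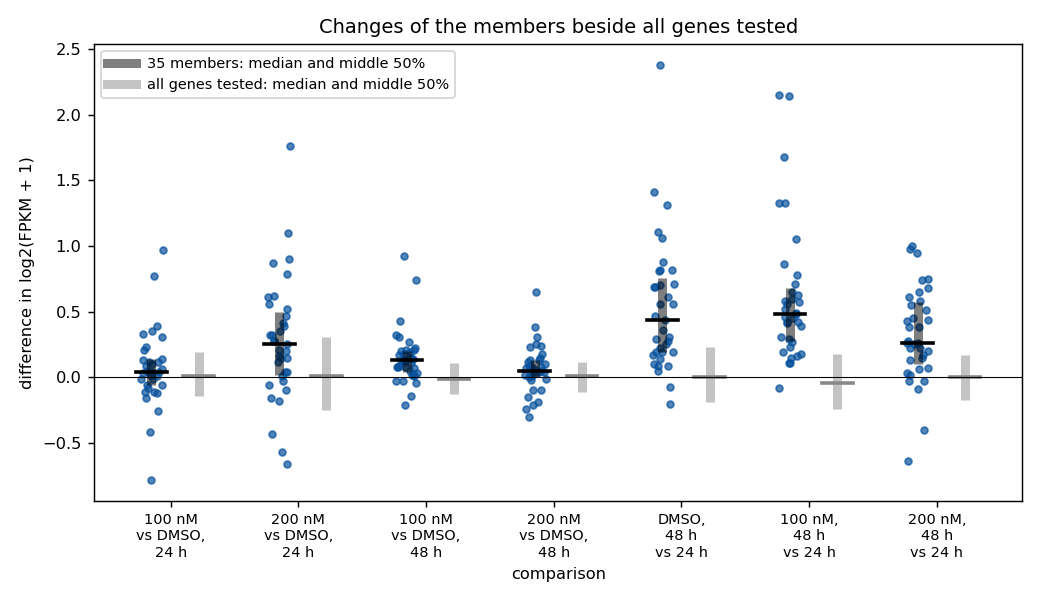
Difference in log2(FPKM + 1) for the 35 tested members (points), with their median and middle 50% (dark bars) beside those of all genes tested (grey bars), in the 4 comparisons with DMSO and the 3 comparisons of 48 h with 24 h. The members' medians in the time comparisons are 0.44, 0.48 and 0.26, the last close to the 0.25 of 200 nM against DMSO at 24 h.

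NDRG1 and CA12 were the hypoxia targets called at 200 nM 24 h. NDRG1, a stress-responsive gene that restrains metastasis in several tumours (NCBI Gene ID 10397, chromosome 8 from 134249414 to 134309547, minus strand, hg19), was at 101 FPKM in DMSO, 172 FPKM at 100 nM and 343 FPKM at 200 nM after 24 h. After 48 h it was at 528, 555 and 688 FPKM. All 3 libraries at 48 h were above all 3 at 24 h, and the level followed the dose at both times. In log2(FPKM + 1), 100 nM exceeded DMSO by 0.77 at 24 h and by 0.07 at 48 h, and 200 nM by 1.76 and by 0.38. CA12, a membrane-bound carbonic anhydrase that helps to export acid (Gene ID 771, chromosome 15 from 63615730 to 63674309, minus strand), was at 6.09, 12.9 and 14.2 FPKM at 24 h and 16.6, 16.2 and 19.7 FPKM at 48 h. The DMSO 24 h library was the lowest for both genes. For CA12 the differences from DMSO were 0.97 and 1.10 at 24 h, on either side of the 2-fold limit, while those at 48 h were -0.03 and 0.23.

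CA9, the other membrane-bound carbonic anhydrase and a standard hypoxia marker (Gene ID 768, chromosome 9 from 35673915 to 35681156, plus strand), went the other way at 24 h and was expressed at a low level. It was at 1.28, 0.33 and 0.44 FPKM at 24 h and at 2.10, 4.88 and 1.79 FPKM at 48 h. These levels correspond to about 39, 10 and 13 fragments and about 62, 146 and 47 fragments. At 100 nM the ratio to DMSO was 0.26 at 24 h (95% exact binomial interval 0.12 to 0.54) and 2.32 at 48 h (1.70 to 3.16). At 200 nM it was 0.34 at 24 h (0.17 to 0.67) and 0.85 at 48 h (0.57 to 1.27). These intervals cover counting error only and not the variation between cultures. On the log2(FPKM + 1) scale, which understates differences at such levels, CA9 stayed inside the 2-fold limit in all 4 comparisons.

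**Figure D3:**
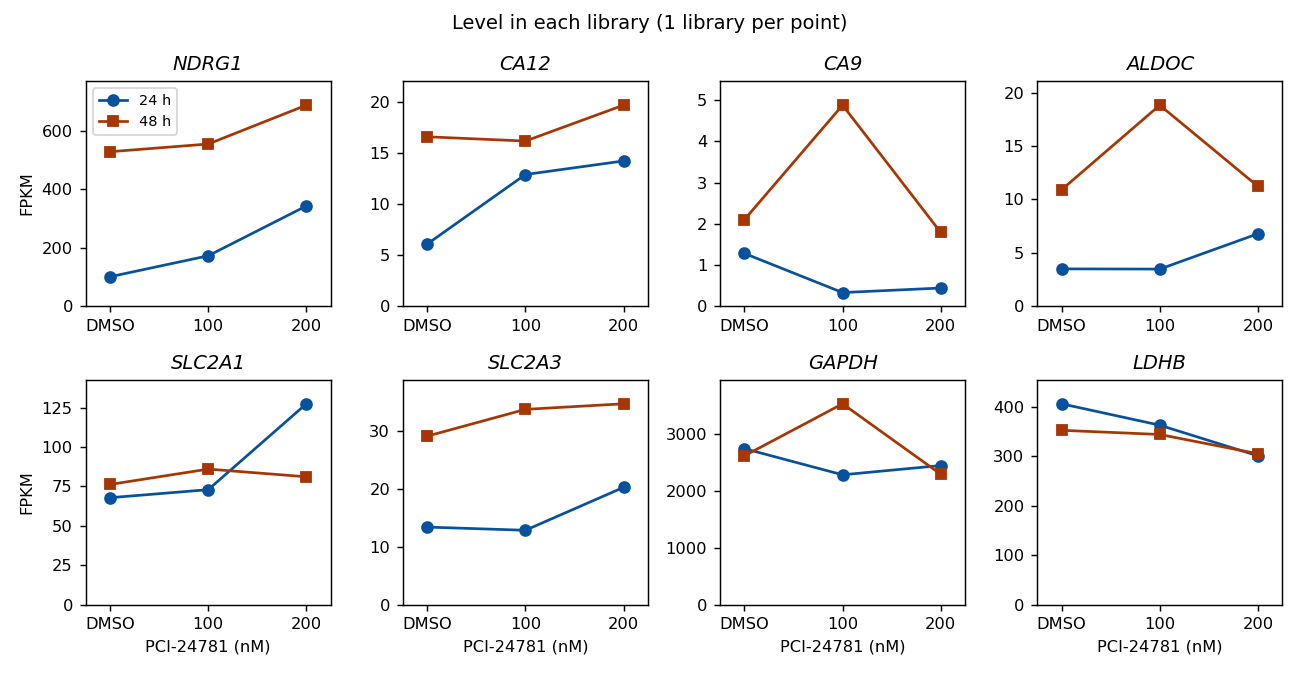
FPKM of 8 members in each of the 6 libraries, against the dose of PCI-24781, with 24 h as blue circles and 48 h as orange squares. Each point is 1 library and every axis starts at 0. NDRG1, CA12, CA9, ALDOC and SLC2A3 are above at 48 h in all 3 treatments, whereas SLC2A1 is highest at 200 nM 24 h.

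The secreted targets and the mitochondrial targets were higher at 200 nM 24 h by smaller amounts. ADM, a vasodilator peptide gene, was at 54.7, 55.2 and 84.3 FPKM at 24 h and at 58.1, 61.4 and 63.5 FPKM at 48 h. ANGPTL4, which encodes an inhibitor of lipoprotein lipase, was at 1.61, 2.33 and 2.99 FPKM at 24 h and at 3.24, 3.47 and 5.65 FPKM at 48 h. VEGFA, the main angiogenic growth factor gene, was at 16.9, 18.7 and 19.8 FPKM at 24 h and at 31.9, 34.9 and 32.2 FPKM at 48 h. Its differences from DMSO were 0.01 to 0.21 on the log2(FPKM + 1) scale. Those between the times, at 0.68 to 0.88, were larger. BNIP3 and BNIP3L, a pair of receptors for the removal of mitochondria, followed the dose together at 24 h. BNIP3 was at 133, 156 and 177 FPKM at 24 h and at 235, 268 and 252 FPKM at 48 h. BNIP3L was at 49.98, 57.9 and 65.8 FPKM at 24 h and at 81.1, 88.1 and 75.8 FPKM at 48 h. BNIP3 made up 72.7% to 76.9% of the summed FPKM of the pair in the 6 libraries.

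The oxygen-dependent enzymes among the targets were of low to moderate level. P4HA1, a subunit of the collagen prolyl 4-hydroxylase, was at 32.7, 40.8 and 47.3 FPKM at 24 h and at 54.3, 54.9 and 64.4 FPKM at 48 h. Its relative P4HA2 was at 10.1, 10.4 and 12.4 FPKM at 24 h and at 15.9, 17.6 and 16.4 FPKM at 48 h, and P4HA1 held 75.7% to 79.7% of the pair in every library. EGLN3, a hydroxylase that marks HIF alpha subunits for destruction, was at 1.40, 2.02 and 3.40 FPKM at 24 h and at 3.21, 2.63 and 4.22 FPKM at 48 h. KDM3A, a histone H3 lysine 9 demethylase, ranged from 18.9 to 28.6 FPKM, and ANKRD37, an ankyrin-repeat protein gene, from 2.29 to 4.31 FPKM. Of the 13 hypoxia targets, 11 rank DMSO, 100 nM and 200 nM in increasing order at 24 h and 5 at 48 h. The same order occurs in 32.3% of all 11893 genes expressed in any library at 24 h and in 10.3% at 48 h. The reverse order was found at 24 h for GPI, PFKL, TPI1 and LDHB, against 30.4% of all genes, and at 48 h for LDHB, against 11.3%. None of the hypoxia targets had the reverse order.

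Glucose uptake was represented by SLC2A1 and SLC2A3, the transporters GLUT1 and GLUT3. SLC2A1 was at 67.9, 73.0 and 127 FPKM at 24 h and at 76.3, 86.0 and 81.1 FPKM at 48 h. The 200 nM 24 h library stood apart from the other 5, which lay within 67.9 to 86.0 FPKM. SLC2A3 was at 13.4, 12.8 and 20.2 FPKM at 24 h and at 29.1, 33.7 and 34.7 FPKM at 48 h. Its share of the summed FPKM of the pair was 13.7% to 16.5% at 24 h and 27.6% to 29.9% at 48 h, with no overlap between the times.

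In upper glycolysis, from hexokinase to triosephosphate isomerase, 0 of the 9 genes reached 2-fold with PCI-24781. Over all genes, 0.0608% to 4.49% were called higher and 0.06% to 1.48% lower in the 4 comparisons, so this count is close to the background. HK1, the widely expressed hexokinase, was at 112, 123 and 143 FPKM at 24 h and at 137, 133 and 150 FPKM at 48 h. HK2, the form induced in many tumours, stayed between 18.1 and 21.5 FPKM, and HK1 held 86.1% to 88.6% of the pair. The phosphofructokinase forms, which catalyse the committed step, did not move alike. PFKL was at 25.3, 18.7 and 16.7 FPKM at 24 h and at 31.7, 39.7 and 25.5 FPKM at 48 h. PFKP, the predominant form, was at 97.7, 106 and 109 FPKM at 24 h and at 119, 121 and 127 FPKM at 48 h, and PFKM varied only between 26.1 and 29.1 FPKM. PFKL made up 17%, 12.3% and 11% of the 3 forms at 24 h and 17.8%, 20.9% and 14.2% at 48 h.

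Aldolase was nearly all ALDOA, at 839 to 1247 FPKM. ALDOC, the minor form (Gene ID 230, chromosome 17 from 26900133 to 26903951, minus strand), was at 3.49, 3.47 and 6.78 FPKM at 24 h and at 10.9, 18.8 and 11.2 FPKM at 48 h. It made up 0.412% to 0.656% of aldolase at 24 h and 0.975% to 1.49% at 48 h. GPI and TPI1, the isomerases of the upper pathway, ranged from 91.4 to 132 and from 445 to 640 FPKM. The regulators PFKFB3 and PFKFB4 set the level of fructose 2,6-bisphosphate, an activator of phosphofructokinase. PFKFB3 was between 15.5 and 21.0 FPKM, while PFKFB4 was at 5.44, 5.11 and 5.60 FPKM at 24 h and at 12.9, 14.4 and 12.04 FPKM at 48 h. PFKFB4 therefore held 24.4% to 26% of the pair at 24 h and 39.7% to 41.6% at 48 h.

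In lower glycolysis, from GAPDH to pyruvate kinase, 0 of the 5 genes reached 2-fold with PCI-24781. This count too is close to the background of 0.0608% to 4.49% of all genes called higher and 0.06% to 1.48% lower. GAPDH, often used as a reference gene, was at 2743, 2283 and 2446 FPKM at 24 h and at 2617, 3531 and 2293 FPKM at 48 h. Its highest library was 100 nM 48 h, with a difference from DMSO of 0.43 on the log2 scale, and the other 5 lay within 2283 to 2743 FPKM. ENO1 ranged from 912 to 1433 FPKM, PKM from 858 to 1171 FPKM, PGAM1 from 346 to 400 FPKM and PGK1 from 138 to 234 FPKM. The 16 enzymes from hexokinase to lactate dehydrogenase together made up 1.95%, 1.82% and 1.97% of the summed FPKM at 24 h and 2.13%, 2.51% and 2.13% at 48 h. Pseudogenes named after members exist in RefSeq for 16 of the 36, among them 65 for GAPDH, 46 for BNIP3, 13 for PGAM1 and 6 for LDHA, and none is listed in the tables, so fragments of such copies may be counted with the parent gene.

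The lactate dehydrogenase subunits differed in pattern. LDHA, whose subunit favours lactate formation, was at 1060, 984 and 992 FPKM at 24 h and at 1210, 1374 and 1191 FPKM at 48 h. LDHB, whose subunit favours lactate use, was at 406, 363 and 301 FPKM at 24 h and at 353, 344 and 306 FPKM at 48 h. LDHB was the only member below DMSO in all 4 comparisons, with differences of -0.16, -0.43, -0.03 and -0.21, against 16 members above DMSO in all 4. Over all genes the shares with 1 sign throughout were 11.3% below and 10.1% above, and both comparisons of a time use the same DMSO library. The LDHA share of the pair was 72.3%, 73% and 76.7% at 24 h, and at 48 h it was 77.4%, 80% and 79.6%. The 3 later values were all above the earlier ones. SLC16A3, the lactate exporter MCT4, was at 131, 140 and 157 FPKM at 24 h and at 194, 207 and 204 FPKM at 48 h, and it made up nearly all of the pair with SLC16A1. PDK1, a kinase that inhibits pyruvate dehydrogenase, was at 6.73, 9.10 and 8.67 FPKM at 24 h and at 12.7, 11.4 and 13.2 FPKM at 48 h.

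**Figure D4:**
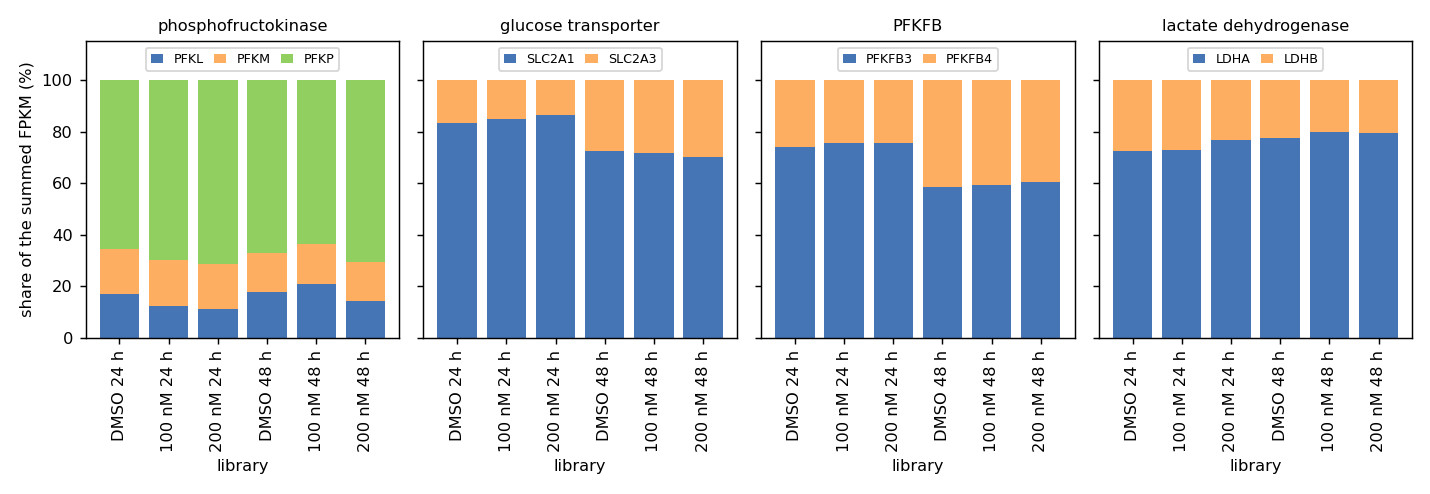
Share of each form in the summed FPKM of its family, in percent, for the 6 libraries. SLC2A3 and PFKFB4 (orange) take larger shares in the 3 libraries at 48 h, at 27.6% to 29.9% and 39.7% to 41.6%, than at 24 h.

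Of the members above DMSO in all 4 comparisons, the 5 with the largest smallest difference were BNIP3, SLC2A1, ANGPTL4, NDRG1 and SLC16A3. Their smallest differences were 0.10, 0.09, 0.08, 0.07 and 0.07 on the log2(FPKM + 1) scale. At 100 nM, 15 of the 35 members had differences of opposite sign at 24 h and 48 h, of which 11 were below DMSO at 24 h and above it at 48 h. At 200 nM, 5 had opposite signs. The share of all genes with opposite signs was not calculated, so these counts are not read as a trait of the members. At 100 nM, 51.6% of all genes were above DMSO at 24 h and 47.2% at 48 h. At 48 h, 21 of the 35 were highest in the 100 nM library, among them GAPDH, ALDOC, CA9 and PFKL, against 36% of all genes.

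Between the times, most members were higher at 48 h. Within DMSO the median difference between 48 h and 24 h was 0.44 on the log2(FPKM + 1) scale, within 100 nM it was 0.48 and within 200 nM 0.26, while the medians of all genes were -0.04 at 100 nM and within 0.01 of 0 in the others. The 0.26 within 200 nM is close to the 0.25 between 200 nM and DMSO at 24 h, and both use the 200 nM 24 h library. These 3 comparisons share no library with each other, but the one within DMSO uses the same DMSO 24 h library as the treatment comparisons at 24 h. Called higher at 48 h were 5 of the 35 members in DMSO (ALDOC, CA12, NDRG1, PFKFB4 and SLC2A3), against 2.49% of all genes. At 100 nM there were 6 (ALDOC, CA9, NDRG1, PFKFB4, PFKL and SLC2A3), against 0.961%, and at 200 nM 1 (NDRG1), against 0.748%. None of the members was called lower, where 0.131%, 0.857% and 0.179% of the genes were. NDRG1 was the only member at least 2-fold higher at 48 h under all 3 treatments, as were 0.177% of the genes, with differences of 2.38 in DMSO and 1.68 at 100 nM and a value just at the limit at 200 nM.

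All 3 libraries at 48 h lay above all 3 at 24 h for 26 of the 35 members, and for none did they lie below, whereas 11.3% of the 11893 genes lay above and 13.2% below. Within each treatment taken alone, 29 were higher at 48 h than at 24 h in all 3 (18.5% of all genes) and 0 were lower in all 3 (21.2%). The 26 comprised 11 of the 13 hypoxia targets and 15 of the 22 tested glycolysis members. ADM and EGLN3 were the hypoxia targets that did not separate, and SLC2A1, HK1, HK2, TPI1, GAPDH, PKM and LDHB were the glycolysis members. Leaving out each library in turn gave 26 to 32 of the 35, with the highest number without the 200 nM 24 h library. The share over all genes was then 13.1% to 19.3%. Leaving out a library can only keep or raise such a count, so the range could not fall below 26 and is no check of it. The count of 26 does not depend on the order of the libraries within a time. The labels give no date of library preparation, so time in culture and any difference in how the libraries of the 2 times were handled cannot be told apart.

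**Figure D5:**
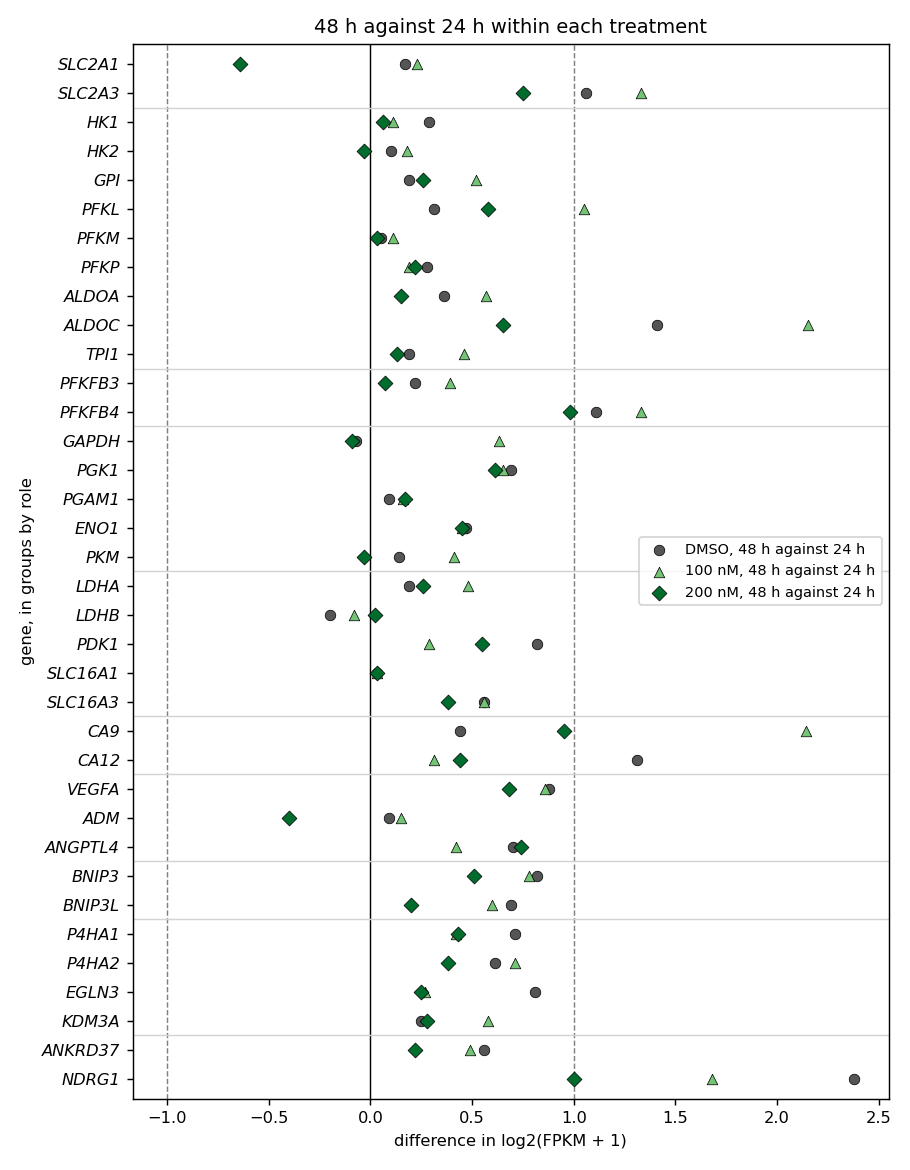
Difference in log2(FPKM + 1) between 48 h and 24 h within DMSO (grey circles), 100 nM (light green triangles) and 200 nM (dark green diamonds) for the 36 members. Dashed lines mark 2-fold. Nearly all points lie right of 0, and NDRG1 reaches 2-fold at all 3 treatments.

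The genes of HIF subunits showed different patterns. EPAS1, which encodes HIF-2 alpha, was at 22.7, 34.5 and 60.8 FPKM at 24 h and at 28.9, 36.8 and 36.9 FPKM at 48 h. It was the only one of the 9 tested HIF subunit and regulator genes called at 200 nM 24 h, with a difference of 1.38. HIF1A was at 185, 179 and 158 FPKM at 24 h and at 227, 227 and 227 FPKM at 48 h, so its libraries separated by time. All libraries at 48 h lay above all at 24 h for 3 of the 9 genes, HIF1A among them, and below for 0. The shares over all genes were 11.3% above and 13.2% below.

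Further hypoxia targets, a list that shares no gene with the members, gave 9 higher and 1 lower of 44 tested at 200 nM 24 h, against 4.49% and 1.48% of all genes. The largest differences were those of the transmembrane protein gene TMEM45A (1.93), the ephrin ligand gene EFNA3 (1.70) and IGFBP3 (1.69), and GBE1, the glycogen branching enzyme, was lower at -1.25. At 100 nM 24 h, 3 of 43 were called higher (TMEM45A, IGFBP3 and EDN1, which encodes the vasoconstrictor endothelin) and 0 lower, against 1.35% and 0.131%. At 100 nM 48 h IGFBP3, an insulin-like growth factor binding protein, was the only one called, lower at -1.09 (0.408% of all genes were lower), and at 200 nM 48 h 0 of 45 were called. For 23 of these 45 genes all libraries at 48 h lay above all at 24 h, and for 0 below, against 11.3% and 13.2% of all genes. Further genes of glycolysis and its neighbours gave 3 higher and 1 lower of 26 tested at 200 nM 24 h, against the same 4.49% and 1.48%, and 0 in the other 3 comparisons. The 3 were HKDC1, a hexokinase-domain protein gene (1.46), the glucose transporter SLC2A12 (1.33) and PDK2, another pyruvate dehydrogenase kinase (1.10). The gluconeogenic enzyme FBP1 was lower at -1.01. Of these 27 genes with an FPKM of at least 1, 3 separated upward by time and 2 downward, near or below the 11.3% and 13.2% of all genes.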

How the data were processed

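RNA of 6 libraries, enriched for mRNA or depleted of rRNA, was sequenced at a company. The authors deposited FPKM per gene with 2 decimals, and the submitters' processing notes name Bowtie2, RSEM and hg19, with no versions. The annotation is not given in the sources used here. Gene coordinates are those of the files. Names came from the RefSeq GRCh38.p14 table by Gene ID (16585 of 16623 genes matched). For 11 genes, VEGFA among them, the chromosome is unreadable.

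Each library was compared by the difference of log2(FPKM + 1), which understates differences of low genes. The files give no counts, so no count test was run, and with 1 library per condition there are no p-values. A call needed 2-fold and a minimum FPKM of 1 in either library. Depth was inferred from steps of low values in genes with 1 transcript of 500 to 1500 bases (225 to 271 genes, GENCODE release 29 lengths) and is approximate. Members and lists were chosen with earlier results of these data known. Named with every library's value were members past 2-fold with PCI-24781, the 5 per direction with the largest smallest difference among those with 1 sign in all 4 comparisons, forms of 1 enzyme or transporter, EPAS1 and HIF1A, and, from further lists, at most 3 called genes per direction. A gene covered by this rule is not reported here. Other members are named with values or ranges after their values were seen. The alternatives changed the threshold to 1.5-fold, the pseudocount to 0.1 or 0.01, the filter to none or to a minimum FPKM of 1 in both libraries, or rescaled to TPM or by median-of-ratios factors. Analyses used pandas 2.3.3 and numpy 2.4.6 under Python 3.11.15, with figures from matplotlib 3.10.9.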

Additional observations from a re-analysis of the deposited data

Results flagged for a closer look

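CA9 at 100 nM was below DMSO at 24 h, with a difference of -0.78 in log2(FPKM + 1), and above it at 48 h, with a difference of 0.92. It was the only member that differed by at least 1.5-fold in opposite directions at the 2 times of 1 dose. The difference between the times was not tested, since each value rests on 1 library per group, and the 48 h value rests on the libraries labelled DMSO 48 h and 100 nM 48 h.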

How the results depend on the processing

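No paired analysis was possible because the groups share only replicate number 1. The 3 pairs of times within a treatment are given as values, and no additive fit of time and treatment was run. With pseudocounts of 0.1 and 0.01, 1 member was called higher (CA12) and 1 lower (CA9) at 100 nM 24 h, 1 lower (CA9) at 200 nM 24 h and 1 higher (CA9) at 100 nM 48 h, where the pseudocount of 1 gave 0 in each. At 200 nM 24 h both pseudocounts and the rescaling to TPM also added EGLN3, giving 3 higher against 2. After rescaling to TPM, 1 was called higher and 1 lower at 100 nM 24 h and 1 higher at 100 nM 48 h, the same genes. The shares of all genes called with these pseudocounts or after rescaling to TPM are not given, so these counts have no background beside them. With a 1.5-fold threshold, 2 were higher and 1 lower at 100 nM 24 h, 7 higher and 1 lower at 200 nM 24 h, 2 higher at 100 nM 48 h and 1 higher at 200 nM 48 h. The 7 were ADM, ALDOC, ANGPTL4, CA12, EGLN3, NDRG1 and SLC2A1. Omitting the filter, a minimum FPKM of 1 in both libraries and rescaling by median-of-ratios factors changed no count of called members, and no member reversed its direction where it was called. The number of members above in all libraries at 48 h was 25 after either rescaling, against 26. With each library left out in turn it was 26 to 32, and leaving out a library can only keep or raise it. These last settings, and those of the time median in DMSO, were chosen after seeing the data. FPKM differences of low genes such as CA9 are limited by about 10 to 146 fragments.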

Other observations

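Genes that carry pyruvate into the mitochondrion or belong to the pentose phosphate pathway compete with lactate formation for the same carbon. They did not all differ in 1 direction between the times. Of 10 genes of pyruvate entry, 0 were called with PCI-24781 in any of the 4 comparisons. Over all genes, 0.0608% to 4.49% were called higher and 0.06% to 1.48% lower. PC, which encodes pyruvate carboxylase, was at 10.2, 12.6 and 16.2 FPKM at 24 h and at 21.2, 21.7 and 24.1 FPKM at 48 h. Of the 10, PC and PDP2 were above in all 3 libraries at 48 h, against 11.3% of all genes. DLAT, DLD and PDHA1, which encode subunits of pyruvate dehydrogenase, were below, against 13.2%. These genes were chosen after their values were seen. Of 8 tested pentose phosphate pathway genes, all 3 libraries at 48 h lay above those at 24 h for 1 and below for 2. The shares over all genes are the same 11.3% and 13.2%.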
